A study of Homo sapiens with 12 samples.

Results

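The complement genes C3, C4A, C4B, C5, CFB, CFI, C1R, C1S and SERPING1 were followed by RNA sequencing in liver cancer cell lines with and without the RNA methyltransferase gene METTL5. They were taken by gene name from the deposited table, where they account for 9 of 58884 rows. C4A and C4B are near-identical copies, so their sum is given throughout. METTL5 marks an adenine of the small-subunit ribosomal RNA with a methyl group. The cells were HCC-LM3, a strongly metastasizing hepatocellular carcinoma line, and Huh-7, a better differentiated one. For each there were wild-type cells, left untreated, and METTL5 knockout cells made with a guide RNA, which gave 12 libraries in 4 groups of 3. The sources used here name no control guide, clone or separate cultures. Loss of METTL5, guide treatment and clonal differences therefore cannot be told apart, and p-values reflect only how far the libraries of a group vary, possibly for technical reasons.

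Complement is a cascade of plasma proteases and their substrates that marks particles for uptake and punctures membranes, and the liver makes most of its soluble proteins. In the classical pathway the proteases C1r and C1s are switched on when C1q binds a target, and C1s cuts C4 and C2. The pathways meet at C3, whose fragment C3b joins with factor B to form the convertase of the alternative pathway, and C5 is cut next to start the membrane attack complex. The inhibitor encoded by SERPING1 blocks C1r and C1s, and factor I, encoded by CFI, cuts C3b and C4b with the help of cofactors. Many of these genes are known as acute-phase genes of hepatocytes, induced by interleukin 6, interleukin 1 and interferon gamma.

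On GRCh38, C4A (chromosome 6, 31982024 to 32002681), C4B (chromosome 6, 32014795 to 32035418) and CFB (chromosome 6, 31945650 to 31952084) lie near each other on the plus strand. C1R (chromosome 12, 7080199 to 7092607, minus strand) and C1S (chromosome 12, 6988259 to 7071032, plus strand) are neighbours on opposite strands. C3 lies on chromosome 19 (6677704 to 6730562, minus strand), C5 on chromosome 9 (120952335 to 121050276, minus strand), CFI on chromosome 4 (109740694 to 109802179, minus strand) and SERPING1 on chromosome 11 (57597387 to 57614853, plus strand). Of these genes, CFB overlaps C2 by 23 bases and a readthrough gene along most of its length, and C1S overlaps EMG1 and LPCAT3. C3, C4A, C4B, CFI and C1R also have an overlapping gene. Whether counting used strand is not given in the sources used here, so reads in these overlaps could not be assigned with certainty.

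The sequences of C4A and C4B show why their counts are summed. The coding sequences of a GENCODE 29 transcript of each gene were 5235 bases long and differed at 13 positions, an identity of 99.75%. Of all stretches of 100 bases, 87.9% were the same in both, and 83.1% of stretches of 150 bases. The coding bases 3337 to 3396 hold 5 of the differences, set in capitals:

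C4A: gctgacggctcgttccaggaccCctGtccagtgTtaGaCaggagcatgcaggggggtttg

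C4B: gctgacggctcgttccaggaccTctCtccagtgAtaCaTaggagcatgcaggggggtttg

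In the deposited table the C4A share of the counts of the pair ran from 36.1% to 70.6% over the 12 libraries. Within HCC-LM3 wild type alone it ran from 37.3% to 70.6%, so C4A and C4B are not compared with each other.

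The promoter of CFB is shown because the gene moved in opposite directions in the 2 lines and because the receptors and factors known to induce it are described with the results. The RefSeq promoter table on GRCh38.p14 held 4 of the 9 genes (CFB, CFI, C5 and C1R). The CFB start used there lies downstream of the GENCODE 29 start at 31945650, so the window shown is inside the gene span given above. The 250 bases before the CFB start, at chr6:31945845-31946094 on the plus strand, are given 5′ to 3′ with motif matches in capitals:

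CFB: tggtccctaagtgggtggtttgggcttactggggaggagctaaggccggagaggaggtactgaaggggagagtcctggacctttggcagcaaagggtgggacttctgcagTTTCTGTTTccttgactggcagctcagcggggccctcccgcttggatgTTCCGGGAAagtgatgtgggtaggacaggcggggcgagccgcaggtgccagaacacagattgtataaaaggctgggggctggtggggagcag

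Counted from the first base shown, these are an interferon-responsive match (TTTCNNTTT) at 111 to 119 and a STAT match (TTCNNNGAA) at 159 to 167, which do not overlap. Searched on both strands over 35116 RefSeq promoters (250 bases before to 50 after the start), the interferon-responsive letters occurred in 10.5% and the STAT letters in 7.66%. The C/EBP letters (TTGCNNAA), also found in 10.5% of promoters, were not in this window. A match of letters describes the sequence and is no evidence of binding.

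The libraries held 17495280 to 26415554 counts. METTL5 was at 0 counts in all 6 knockout libraries and at 169 to 327 in the wild-type libraries. CPM here stands for counts relative to library size, scaled by trimmed means (TMM). The Huh-7 knockout libraries stood apart: their TMM factors were 0.491 to 0.51 while Huh-7 wild type had 1.06 to 1.10 and HCC-LM3 1.27 to 1.51, and their counts came from shorter genes. The count-weighted mean gene length was 1710 ± 13.6 bases there, 2777 ± 74.2 in Huh-7 wild type, 3165 ± 47.4 in HCC-LM3 knockout and 3183 ± 130 in HCC-LM3 wild type (SD, n = 3). The sum of 8 hepatocyte markers was 10760 to 12250 TPM in wild-type Huh-7 cells and 6295 to 6396 TPM in their knockout, but on TMM-scaled CPM it went the other way, from 13890 to 14900 up to 20060 to 20690. Of the 8, APOA1 (1.34), TTR (1.77) and SERPINA1 (0.72) were called higher on that scale, and ALB (−1.49), AFP (−1.54), APOB (−4.24), TF (−0.48) and HNF4A (−0.72) lower (log2 fold change). In HCC-LM3 they summed to 12.3 to 16.6 TPM, nearly all of it HNF4A, and APOB and TTR were listed at 0 in all 6 libraries. C1QA, C1QB and C1QC, which macrophages make, were at 0 counts in all 12 libraries.

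The first comparison asked which of the 9 complement genes each wild-type line expressed. Among these 9 alone, the transcripts of HCC-LM3 were mostly C1R, C1S and C3, and those of Huh-7 mostly C3 and SERPING1. Per gene length, C1R took 34.9% ± 1.16 of the summed TPM of the 9 genes in HCC-LM3 wild type, C1S 29.3% ± 1.75 and C3 29.1% ± 2.01 (SD, n = 3). C1S and C3 did not differ beyond their spread there. CFB followed at 4.63% ± 0.771 and the C4 pair at 1.74% ± 0.551, while C5, CFI and SERPING1 each stayed under 0.2%. In Huh-7 wild type C3 took 55.6% ± 1.92 and SERPING1 36.6% ± 2.15. Below them came CFB at 2.15% ± 0.223, C5 at 1.83% ± 0.179, CFI at 1.39% ± 0.0793 and the C4 pair at 1.32% ± 0.197, then C1S at 0.61% ± 0.0559 and C1R at 0.475% ± 0.0380. CFB and C5 did not separate beyond their spread, nor did CFI and the C4 pair. The ranges of the summed level overlapped between the lines, at 439 ± 33.8 and 453 ± 20.1 TPM. With TMM-scaled counts per kilobase in place of TPM, the order in HCC-LM3 wild type was the same for all 8 entries, but in Huh-7 wild type SERPING1 came before C3.

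**Figure D1:**
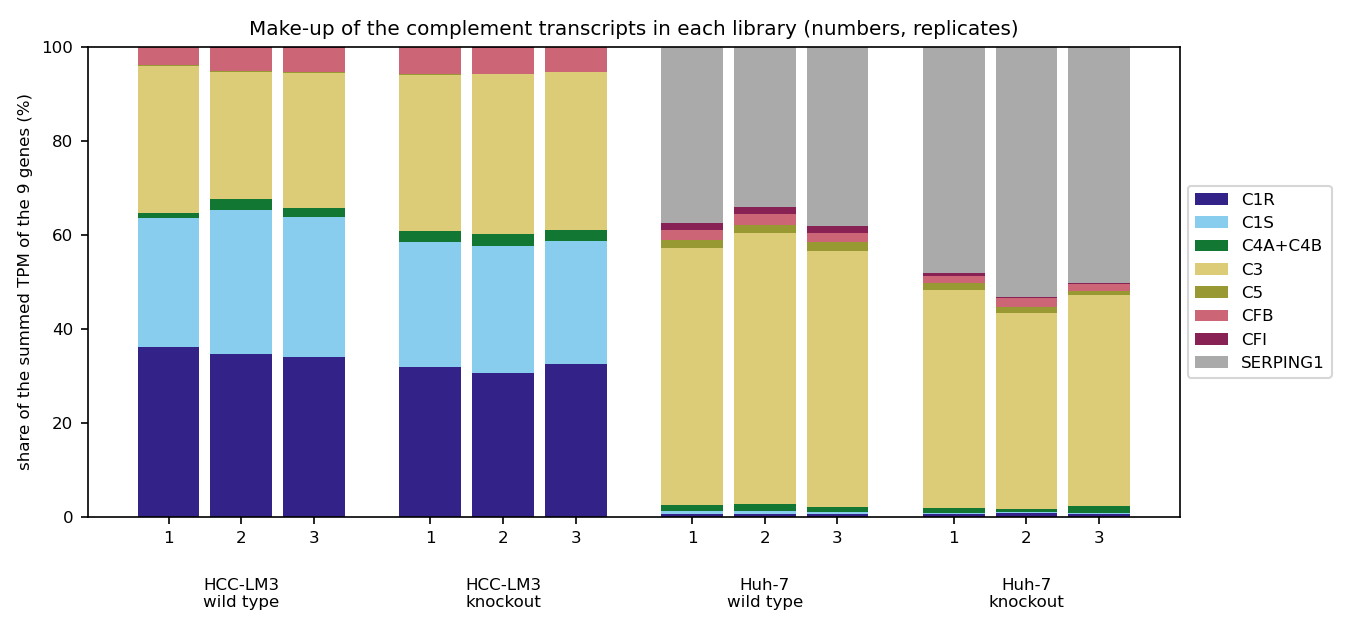
Stacked bars give the share (%) of the summed deposited TPM that each complement gene took in each library, with C4A and C4B joined. C1R, C1S and C3 fill most of the 6 HCC-LM3 bars, and C3 and SERPING1 most of the 6 Huh-7 bars.

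SERPING1 showed the widest gap between the lines among the 9 genes. Its counts were 2, 3 and 8 in the HCC-LM3 wild-type libraries, which is 0.0634, 0.0783 and 0.244 CPM, against 230, 225 and 229 CPM in Huh-7 (log2 difference HCC-LM3 minus Huh-7 −10.76, SE 0.19, adjusted p = 2.79e-31, edgeR quasi-likelihood test with Benjamini-Hochberg adjustment). The proteases that this inhibitor blocks lay the other way. C1R was at 224, 218 and 204 CPM in HCC-LM3 and 5.67, 5.30 and 4.86 CPM in Huh-7 (5.34, SE 0.12, adjusted p = 2.56e-29). C1S was at 189, 191 and 177 CPM against 6.11, 7.66 and 6.33 CPM (4.79, SE 0.12, adjusted p = 1.62e-27). No library of one line reached the range of the other for these 3 genes, as was so for 41.8% of all genes higher in HCC-LM3 and 40.8% lower. CFI and C5 were higher in Huh-7, with 10.9, 11.5 and 12.2 CPM for CFI against 0.222, 0.548 and 0.428 in HCC-LM3 (−4.80, SE 0.26, adjusted p = 7.77e-18). C5 had 20.4, 22.5 and 22.7 CPM against 1.01, 0.966 and 1.62 (−4.19, SE 0.20, adjusted p = 1.77e-19). C3 was also higher in Huh-7, by a smaller step (−1.13, SE 0.11, adjusted p = 1.18e-11), and CFB was higher in HCC-LM3 (0.52, SE 0.11, adjusted p = 9.75e-05).

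The C4 pair summed to 6.78 ± 1.32 CPM in HCC-LM3 and 6.99 ± 1.31 in Huh-7 (SD, n = 3) and did not pass the test (log2 difference −0.04, SE 0.17, adjusted p = 0.839), but with offsets for gene length and GC content it was 0.39 higher in HCC-LM3 and passed. Of the 9 genes, 3 were higher in HCC-LM3, 4 were lower and C4A and C4B did not pass. Among all 16537 genes tested, 41.8% were higher and 41.0% lower (82.8% in all), so the share of complement genes that differed was near that of genes at large. The median over the 9 was −0.35, against 0.03 over all genes.

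The second comparison asked what the knockout changed in HCC-LM3. C4, C3 and CFB rose, and the C1 proteases rose by a smaller step. The 3 wild-type libraries held 5.26, 7.55 and 7.54 CPM of C4A and C4B together, and the knockout libraries 17.3, 19.97 and 15.9. Every knockout library was above every wild-type library. The sum of the pair rose by 1.38 on the log2 scale (SE 0.16, adjusted p = 1.68e-07), with 1.51 (SE 0.19, adjusted p = 1.09e-06) for C4A and 1.25 (SE 0.30, adjusted p = 0.0083) for C4B. C3, the substrate on which the pathways meet, had 227, 234 and 225 CPM in wild type and 380, 404 and 355 in the knockout. The groups lay well apart for C3, and its rise was 0.73 (SE 0.11, adjusted p = 7.43e-06). CFB, the protease subunit of the alternative convertase, had 21.1, 22.1 and 20.4 CPM against 39.0, 39.2 and 31.0, a rise of 0.78 (SE 0.11, adjusted p = 4.79e-06). Its groups did not overlap either, and knockout replicate 3 was the lowest of the knockout libraries for C3, CFB and the C4 pair.

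C1R rose from 215 ± 10.5 to 270 ± 7.30 CPM (0.33, SE 0.09, adjusted p = 0.00583) and C1S from 186 ± 7.55 to 232 ± 11.7 CPM (0.32, SE 0.09, adjusted p = 0.0113; SD, n = 3). Scaled by library totals alone, neither rise passed and both were 0.17, and that of C1S did not pass without wild-type replicate 3 or knockout replicate 1. C5 was the 1 gene that fell, from 1.01, 0.966 and 1.62 CPM to 0.534, 0.897 and 0.747 (−0.73, SE 0.27, adjusted p = 0.0402). Its groups lay close together without overlapping. The fall of C5 did not pass without wild-type replicate 3 (−0.47), knockout replicate 1 (−0.55) or knockout replicate 3 (−0.76), and it was −0.41 with offsets for gene length and GC content. CFI, at 0.399 ± 0.165 CPM in wild type and 0.518 ± 0.155 in the knockout, did not pass (0.33, SE 0.36, adjusted p = 0.549). SERPING1 had 6, 12 and 5 counts in the knockout libraries, or 0.247 ± 0.145 CPM, against 0.129 ± 0.10 CPM in wild type. It did not pass (0.89, SE 0.49, adjusted p = 0.181), but did without wild-type replicate 3, where the value was 1.66.

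In all, 6 of the 9 genes were higher in the HCC-LM3 knockout, 1 was lower and 2 did not pass. Over all genes tested, 14.0% were higher and 12.9% lower, 26.8% together. The CPM of the groups did not overlap for the same 7 genes, while over all genes 20.5% were higher without overlap and 18.2% lower. The median over the 9 was 0.73, against 0.00 over all genes. In this line the change moved little with gene length, with a median of −0.05 for genes over 5 kb, but it moved with GC content, and the median was −0.28 for genes under 45% GC and 0.30 for genes over 60% GC. C5, at 39.9% GC, lies in the low range, and C3, C4A and C4B lie at 56.5% to 58.4%. With offsets for GC content and length the rises were 1.12 for the C4 pair, 0.51 for C3, 0.65 for CFB and 0.36 for C1S, all still past the test, while C1R at 0.15 was not. On the deposited TPM values (limma on log2(TPM + 0.1)), C3 was the 1 gene of the 9 that passed.

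The third comparison asked the same in Huh-7. C3, the C4 pair, C5, CFB, CFI and C1S fell, and the 2 genes nearest to no change were C1R and SERPING1. C3 had 488, 416 and 603 CPM in wild type and 163, 149 and 159 in the knockout. The wild-type libraries spread more widely, and all 3 stayed above the knockout. C3 fell by 1.68 on the log2 scale (SE 0.11, adjusted p = 1.99e-15). C1S had 6.11, 7.66 and 6.33 CPM against 1.08, 2.33 and 1.43, and fell by 2.08 (SE 0.21, adjusted p = 1.01e-10). The knockout values rest on 11, 20 and 13 counts. For C1S the highest knockout library was at less than the lowest wild-type library. C5 fell by 2.10, from 21.9 ± 1.28 to 5.07 ± 1.39 CPM (SE 0.19, adjusted p = 1.04e-11; SD, n = 3).

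CFI, the protease that inactivates C3b and C4b, had 10.9, 11.5 and 12.2 CPM in wild type and 4.14, 2.33 and 2.20 in the knockout. All 3 knockout libraries were below wild type, replicate 1 least so, and the fall was 1.97 (SE 0.24, adjusted p = 5.10e-09). CFB fell from 15.2, 15.3 and 13.6 CPM to 7.79, 8.16 and 8.57 (−0.85, SE 0.14, adjusted p = 1.56e-06), again without overlap. The C4 pair summed to 7.17, 5.6 and 8.20 CPM in wild type and 3.65, 2.68 and 4.18 in the knockout, which did not overlap either, and fell by 0.99 (SE 0.21, adjusted p = 9.63e-05). The Huh-7 knockout libraries held 23 to 38 counts of the pair. Within the pair C4A fell by 1.38 (SE 0.28, adjusted p = 4.44e-05), and C4B was at −0.56 (SE 0.44, adjusted p = 0.271).

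For C1R, with 5.67, 5.30 and 4.86 CPM in wild type and 5.22, 6.76 and 5.38 in the knockout, the groups overlapped and the test was not passed (0.12, SE 0.15, adjusted p = 0.484), and the sign depended on the scaling: 0.56 with DESeq2 size factors, −0.28 with offsets for GC content and length and −0.99 with library totals alone. SERPING1, with 230, 225 and 229 CPM in wild type and 262, 268 and 265 in the knockout, was higher under TMM scaling by 0.22 (SE 0.10, adjusted p = 0.0471) and under DESeq2 size factors by 0.66, but lower under the offsets (−0.35) and library totals (−0.89). No direction is drawn for these 2 genes in Huh-7.

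**Figure D2:**
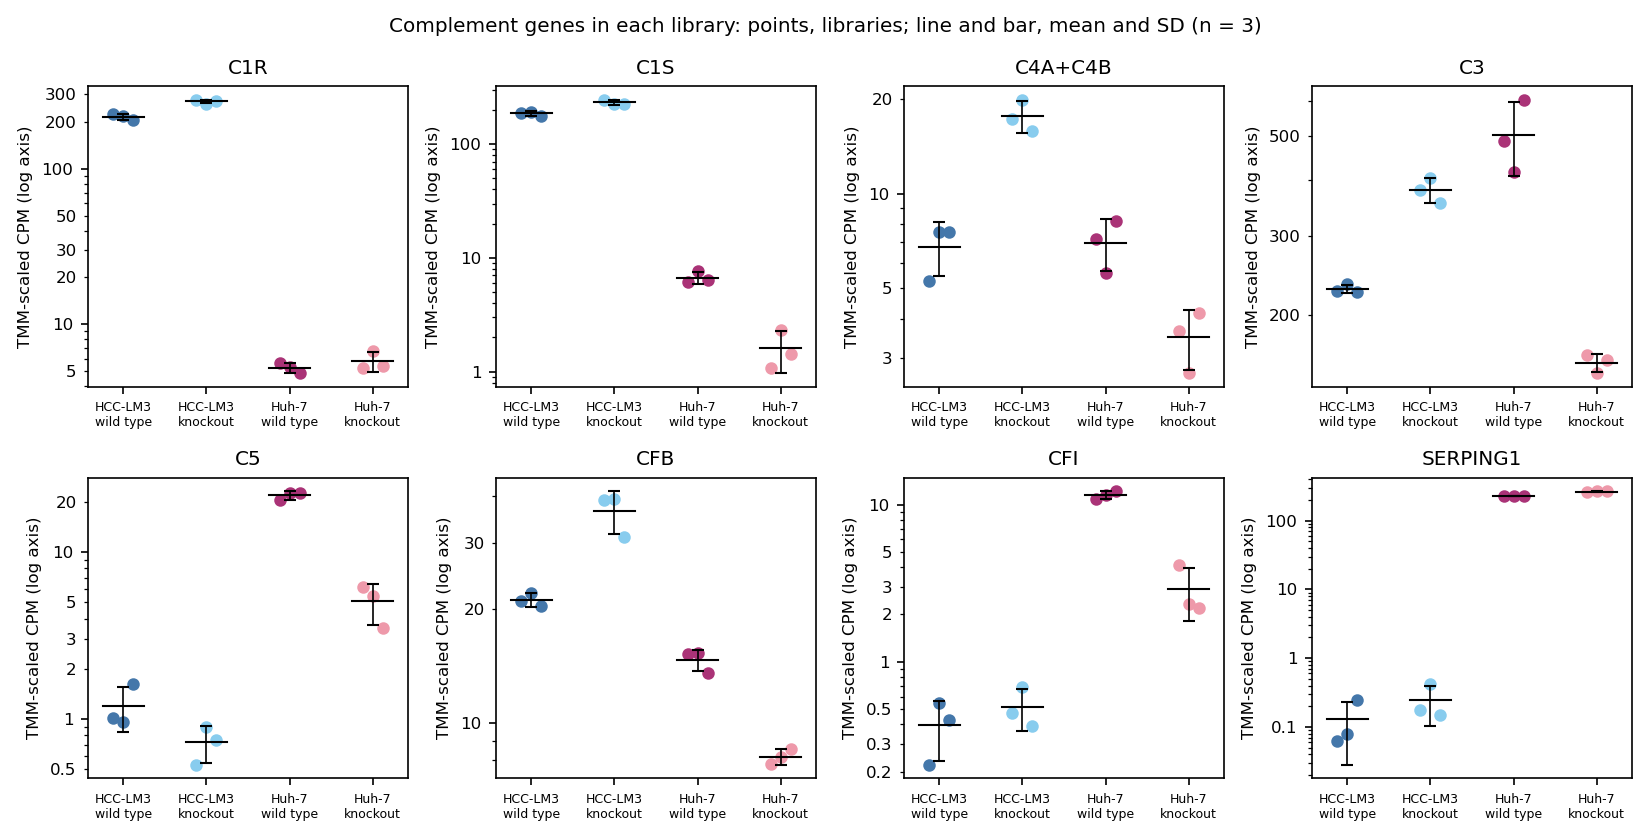
Each panel gives the TMM-scaled CPM (log axis) of 1 gene, or of the C4 pair, in the 12 libraries, with the mean and SD of each group of 3. C3, C4A+C4B and CFB are higher in the knockout in HCC-LM3 and lower in Huh-7, while for C1R and SERPING1 in Huh-7 the direction depends on the scaling.

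In Huh-7, 1 of the 9 genes was called higher, 6 lower and 2 not. Over all genes tested, 31.7% were called higher and 43.2% lower under TMM scaling, 75.0% together, so most genes of any kind differed between these libraries. The CPM did not overlap for the same 7 genes, against 32.3% of all genes higher and 44.2% lower without overlap. The median over the 9 was −1.38, against −0.30 over all genes. With library totals alone the median of all genes moved to −1.40 and the share of higher calls among all calls from 42.3% to 15.6%, and with DESeq2 size factors that share was 52.7%.

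Gene length and GC content moved with the change in Huh-7. The median log2 fold change was 1.42 for genes under 1 kb, 0.73 for 1 to 2 kb, 0.00 for 2 to 3 kb, −0.92 for 3 to 5 kb and −1.94 for over 5 kb. It was −1.63 for genes under 45% GC and 0.74 for genes over 60% GC. C3, C4A, C4B and C5 are 5263 to 5465 bases long in the deposited table. C3, C4A and C4B lay above the median of genes over 5 kb, while C5 lay just below it. C1S (3076 bases), CFI (2053 bases) and CFB (2862 bases) were lower than the median of genes of their length. With offsets for both properties, C1S was still lower by 1.46, CFI by 1.21, C3 by 1.10, C4A by 0.85 and CFB by 0.83 (each past the test), C5 was at −0.04 and no longer passed, and the C4 pair at −0.46 did not pass either (adjusted p = 0.0577, over its 17 alternatives 1.18e-07 to 0.0611). C3, CFB, CFI and C1S passed in the same direction in all 17 alternatives run for this line. So did C4A, but it rests on 12.53 to 17.78 counts in the knockout and on an uncertain split of the pair. The C4 pair passed in 15 of the 17. The mean gene length and the hepatocyte markers, whose sum was lower in TPM and higher in TMM-scaled CPM, moved with the knockout as given above, and their part in these falls was not tested beyond the offsets. Fewer cells of a kind and less RNA per cell cannot be told apart in these bulk libraries.

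**Figure D3:**
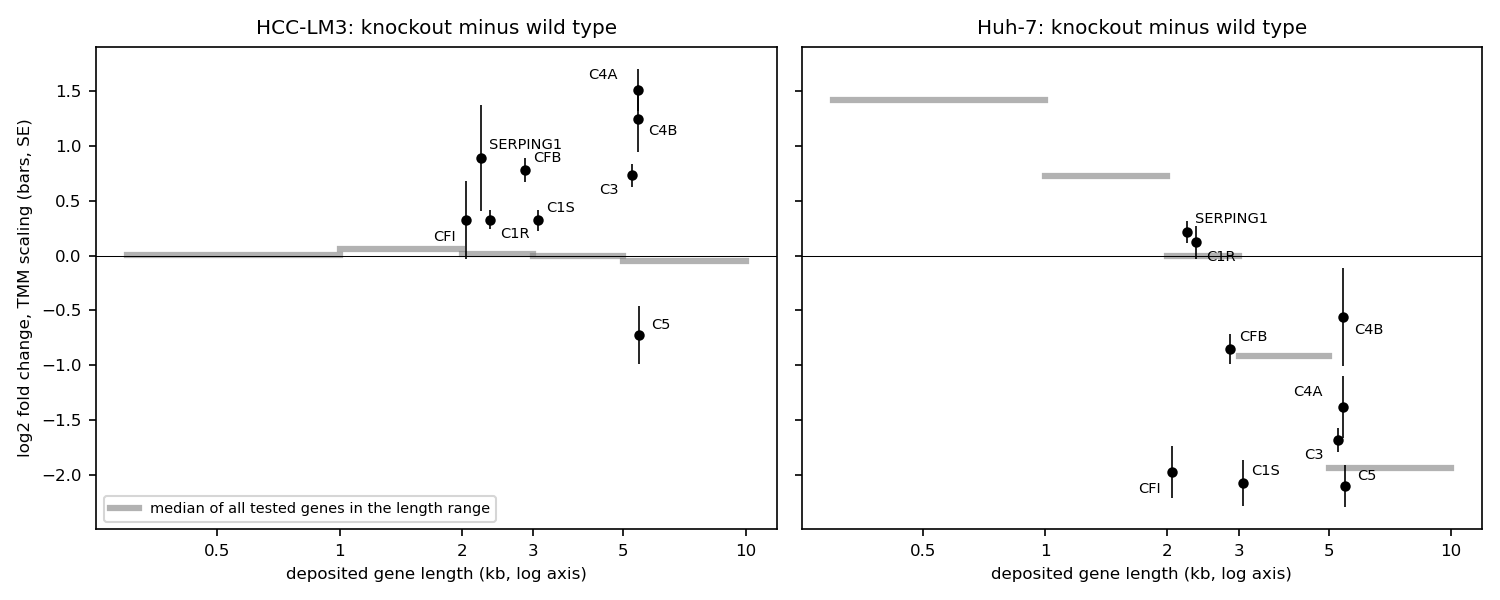
The log2 fold change (bars, SE) of each gene under TMM scaling is plotted against its deposited length (kb, log axis), with grey lines for the median of all tested genes in 5 length ranges. In HCC-LM3 the grey lines stay near 0, and in Huh-7 they run from 1.42 to −1.94. In Huh-7 CFI, C1S and CFB lie below them, and C1R and SERPING1, whose sign depends on the scaling, lie near them.

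Whether the lines differed in their response was tested by subtracting the effect in Huh-7 from that in HCC-LM3. The difference was 2.41 for C3 (SE 0.15, adjusted p = 5.00e-15), 2.37 for the C4 pair (SE 0.26, adjusted p = 1.30e-09) and 1.63 for CFB (SE 0.18, adjusted p = 8.87e-10). C1S had 2.40 (SE 0.23, adjusted p = 7.45e-11), CFI 2.30 (SE 0.43, adjusted p = 2.40e-05) and C5 1.37 (SE 0.34, adjusted p = 0.000653). With offsets for GC content and length, the difference for C5 was −0.38 and did not pass, while that of C3 was 1.61 and that of C1S 1.82. C1R (0.21, SE 0.17, adjusted p = 0.317) and SERPING1 (0.67, SE 0.49, adjusted p = 0.244) did not pass. Over 22 alternatives C1R ran from −0.205 to 1.53 and passed in 4, and SERPING1 passed in 3. In all 7 of the 9 genes were higher in this difference and none lower, where over all genes tested 37.7% were higher and 23.9% lower, 61.6% together. The median over the 9 was 1.81, against 0.39 over all genes.

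**Figure D4:**
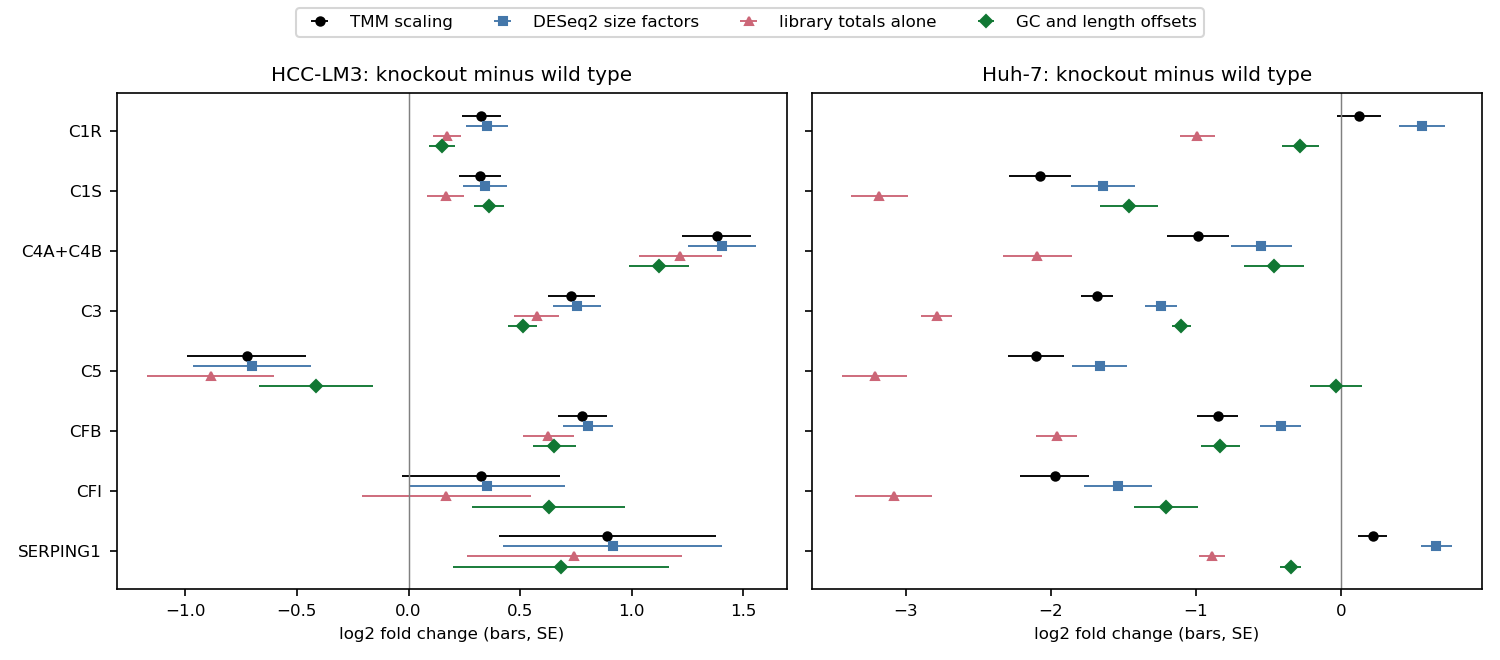
Points give the log2 fold change (bars, SE) of knockout against wild type for each gene in each line under 4 ways of scaling the libraries. In HCC-LM3 the 4 estimates lie close together for C3, CFB and the C4 pair, and in Huh-7 they spread by over 1 for every gene, with C1R and SERPING1 on both sides of 0.

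Ratios of counts within a library do not change with library scaling, but they do move with gene length and GC content where the 2 genes differ in these. C1R and C1S are the paired proteases of C1. There were 1.19, 1.14 and 1.15 C1R counts per C1S count in HCC-LM3 wild type and 1.13, 1.16 and 1.21 in its knockout. The groups overlapped in that line, with a mean ratio of 1.16 against 1.17. In Huh-7 the ratio was 0.927, 0.691 and 0.771 in wild type and 4.82, 2.90 and 3.77 in the knockout. All 3 knockout libraries lay above wild type, 4.74-fold on the geometric mean, with an exact two-sided permutation p of 0.1, the smallest that 3 libraries against 3 allow. C1R (2347 bases, 55.3% GC) is shorter and richer in GC than C1S (3076 bases, 47.9% GC). With offsets for both properties C1R was at −0.28 and C1S at −1.46 in Huh-7. The knockout ratios rest on 11 to 20 counts of C1S. The ratio of the inhibitor to the protease also differed in Huh-7. SERPING1 counts per C1S count were 37.7, 29.3 and 36.1 in Huh-7 wild type and 241, 115 and 186 in the knockout, 5.05-fold higher (exact permutation p = 0.1), where SERPING1 was at −0.35 with the offsets. C3 counts per CFB count were 10.8 ± 0.228 and 10.5 ± 0.863 in HCC-LM3 wild type and knockout. In Huh-7 they were 34.5 ± 8.80 and 19.3 ± 1.46 (SD, n = 3), lower in every knockout library (exact permutation p = 0.1). C3 (5263 bases) is longer than CFB (2862 bases), and with the offsets the 2 genes were at −1.10 and −0.83. C3 counts per C5 count were 201.8 ± 55.1 in HCC-LM3 wild type and 544.5 ± 141.9 in its knockout (SD, n = 3). Every knockout library was higher (exact permutation p = 0.1), but C5 had only 18.11 to 26 counts there. In Huh-7 the groups overlapped. C3 counts per SERPING1 count were 2.20 ± 0.399 in Huh-7 wild type and 0.592 ± 0.0343 in its knockout, lower in every knockout library (exact permutation p = 0.1). Of the 10 tests on 5 ratios in the 2 lines, none could go under 0.1.

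**Figure D5:**
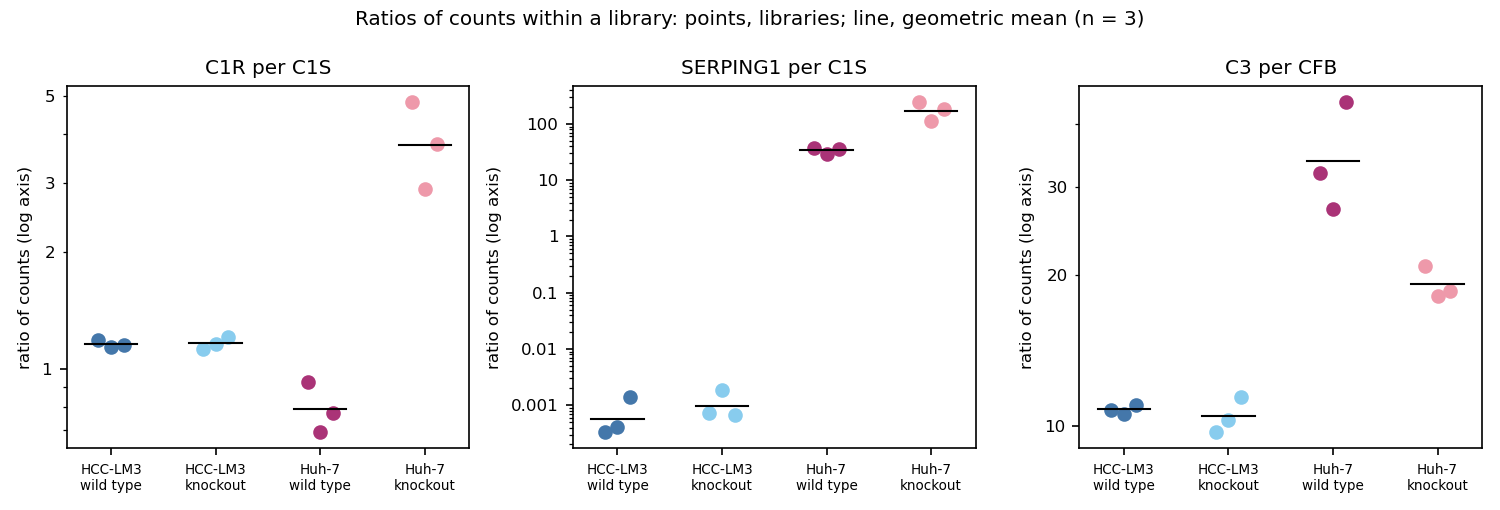
Ratios of counts within each library (log axis) are shown for 3 pairs of genes, with the geometric mean of each group of 3 as a line. C1R per C1S lies between 1.13 and 1.21 in all 6 HCC-LM3 libraries, between 0.691 and 0.927 in Huh-7 wild type and between 2.90 and 4.82 in Huh-7 knockout.

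Within the summed TPM of the 9 genes, C3 went from 29.1% ± 2.01 to 33.7% ± 0.34 in the HCC-LM3 knockout and C1R from 34.9% ± 1.16 to 31.6% ± 0.944. The sum itself went from 439 ± 33.8 to 543 ± 39.1 TPM. In Huh-7 C3 went from 55.6% ± 1.92 to 44.5% ± 2.45 and SERPING1 from 36.6% ± 2.15 to 50.5% ± 2.49, while the sum went from 453 ± 20.1 to 130 ± 6.81 TPM (SD, n = 3). The median over all genes on the TPM scale was −1.33 in this comparison (limma on log2(TPM + 0.1)). In TMM-scaled counts per kilobase the sum was 201 to 237.5 in the wild-type libraries and 157 in each knockout library. The groups did not overlap in any of these shares or sums. By TPM, C3 was the first of the 9 in Huh-7 wild type and SERPING1 in the knockout. In TMM-scaled counts per kilobase the first place did not change hands: SERPING1 was ahead of C3 in wild type (102 against 95.5) and in the knockout (119 against 29.8).

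Other genes of the complement system were read from a list of 46, of which 22 were expressed enough to test. In HCC-LM3, 2 were higher in the knockout, 1 was lower and 19 did not pass, with a median of 0.08 (0.24 over the 16 above the floor of 3 counts per library). Over all genes tested, 14.0% were higher there and 12.9% lower. The higher genes were CFD, the factor D protease that cuts factor B, at 0.32 (SE 0.11, adjusted p = 0.0341), and CLU, the fluid-phase inhibitor clusterin, at 0.31 (SE 0.10, adjusted p = 0.0175). Neither passed with library totals alone, and CFD was at 0.01 with the offsets. CD46, a membrane cofactor for factor I, fell by 0.71 (SE 0.13, adjusted p = 0.000681). Under the offsets the value of CD46 was −0.31. In Huh-7, 6 of the 22 were higher, 6 lower and 10 did not pass, with a median of 0.06. The shares over all genes were 31.7% higher and 43.2% lower, 75.0% together, with a median of −0.30. There CD46 fell from 25.3 ± 0.685 to 4.15 ± 1.37 CPM (−2.59, SE 0.21, adjusted p = 7.13e-10). The convertase-dissociating membrane regulator CD55 fell by 1.61 (SE 0.30, adjusted p = 1.24e-05), and CFD rose from 8.42 ± 1.13 to 42.5 ± 1.54 CPM (2.33, SE 0.13, adjusted p = 6.19e-17; SD, n = 3). CD46 and CD55 were among the 6 lower genes and CFD among the 6 higher, so they do not stand for the list or for its membrane regulators. CD46, CD55 and CFD kept these directions with library totals, DESeq2 size factors and the offsets, under which CD46 was at −1.05, CD55 at −1.04 and CFD at 0.52. The counts over the list did depend on the scaling: with library totals 1 was higher and 15 were lower, and with DESeq2 size factors 12 were higher and 4 lower.

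Between the wild-type lines 6 of the 22 were higher in HCC-LM3 and 14 lower (all genes: 41.8% higher, 41.0% lower). The protease C2 was at 0.255 ± 0.0267 CPM in HCC-LM3 and 63.7 ± 1.70 in Huh-7 (−7.94, SE 0.17, adjusted p = 1.67e-29). The lectin-pathway protease gene MASP1 was at 0.369 ± 0.0216 against 110 ± 13.7 CPM (−8.19, SE 0.17, adjusted p = 4.80e-30). CD55 lay the other way, with 302 ± 5.53 CPM in HCC-LM3 and 2.17 ± 0.521 in Huh-7 (7.10, SE 0.14, adjusted p = 1.30e-30; SD, n = 3). HCC-LM3 thus had more C1R and C1S than Huh-7 and less C2, CFI and SERPING1.

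Of 19 receptors, kinases and factors known to induce complement genes, 7 were higher in the HCC-LM3 knockout, 3 were lower and 9 did not pass, with a median of 0.24 (all genes: 14.0% higher, 12.9% lower, median 0.00). STAT3, which carries the interleukin 6 signal to the nucleus, rose from 179 ± 4.37 to 234 ± 6.90 CPM (0.39, SE 0.09, adjusted p = 0.00115). The acute-phase factor CEBPB rose by 0.49 (SE 0.11, adjusted p = 0.00113), RELA, a kappaB-binding subunit, by 0.44 (SE 0.10, adjusted p = 0.00101), and IRF1, the interferon-induced factor, by 0.47 (SE 0.12, adjusted p = 0.00285). CEBPD (0.46) and HNF4A (0.35) were also among the 7 higher genes under TMM scaling. Under the offsets RELA was at 0.23, and CEBPB at 0.19 did not pass. The 3 lower genes were IL6ST, the signalling subunit of the interleukin 6 receptor, at −0.42 (SE 0.15, adjusted p = 0.0327), the kinase JAK1 at −0.38 (SE 0.10, adjusted p = 0.00647) and IFNGR1, a subunit of the interferon gamma receptor, at −0.42 (SE 0.16, adjusted p = 0.0431). With the offsets 4 of the 19 were higher and 1 was lower, JAK1 at −0.29, while IL6ST was at −0.01 and IFNGR1 at −0.10. In Huh-7, 6 were higher and 11 lower, with a median of −1.09 (all genes: 31.7% higher, 43.2% lower, median −0.30). IL6R, the interleukin 6 receptor, fell from 9.77 ± 0.829 to 1.78 ± 0.310 CPM (−2.46, SE 0.20, adjusted p = 4.57e-13), and NFKB1 from 26.4 ± 0.319 to 5.15 ± 1.78 CPM (−2.35, SE 0.15, adjusted p = 1.12e-15; SD, n = 3). STAT3 fell by 1.09 (SE 0.10, adjusted p = 1.52e-11). Under the offsets STAT3 was at −0.13 and did not pass, IL6R was at −1.50 and NFKB1 at −1.61. CEBPD, another acute-phase factor, rose by 1.77 (SE 0.13, adjusted p = 9.28e-14; 1.05 under the offsets). CEBPB, RELA and IRF1 were called higher in Huh-7 under TMM too (1.04, 0.51 and 0.33), but they were below 0 with library totals (−0.07, −0.60 and −0.78) and at 0.16, 0.12 and −0.06 with the offsets. With library totals 1 of the 19 was higher and 15 lower in Huh-7, and with the offsets 4 were higher and 7 lower.

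The acute-phase plasma protein genes, 11 of 14 of them tested, were counted for comparison. In Huh-7 knockout 9 were higher and 2 lower, with a median of 1.28, against 31.7% higher and 43.2% lower over all genes. With the offsets 4 were higher and 2 lower, with a median of 0.24, and with library totals 3 were higher and 4 lower. In HCC-LM3 only 4 of the 11 were above the floor of 3 counts per library, and SAA4, HP, ORM1 and ORM2 were at 0 in every library. Most of this list was therefore too low in that line to show a change. There 1 passed: SERPINA1, from 0 counts in every wild-type library to 0.0643 ± 0.0371 CPM (SD, n = 3), a level too low for a fold.

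The genes closest in pattern were found by the Pearson correlation of log2 CPM over the 12 libraries, given as a description since all points share library scaling and 4 groups. For C3 they were ECE1, CLUH and PTPN23 (r = 0.98 each). The C4 pair was closest to CES2 (r = 0.96), TONSL (r = 0.96) and JUN (r = 0.95), and CFB to ULK1, CES2 and GLIS2 (r = 0.98 each). CES2 is on both lists. C1S, which was far higher in HCC-LM3, was closest to ELOA, KDSR and MYO1E (r = 1.00 each after rounding).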

How the data were processed

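Per the file headers, the authors' table gives gene lengths and, for every library, expected counts and TPM. The deposited expected counts are not normalized, and 7.49% to 13.3% of a library's values are fractional. TPM as deposited by the authors adds up to 977632 to 998831 and served for levels between genes and as an alternative. The submitters' processing notes list Bowtie 0.12.2 with mm8 and mm9, mouse builds that cannot belong to human gene identifiers. No source used here gives the counting tool, the strand setting or the human build, so how reads were shared between C4A and C4B is unknown.

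Expected counts were rounded, filtered with filterByExpr and fitted for all 12 libraries with edgeR 4.0.16 in R 4.3.3 (TMM, robust quasi-likelihood, 1 mean per group, 8 residual degrees of freedom). C4A and C4B were summed before a separate fit. A gene was called at a two-sided Benjamini-Hochberg adjusted p under 0.05 over the 16537 genes tested, and all adjusted p-values in the text are of this kind. All 9 complement genes passed the filter. Coordinates and GC content came from GENCODE 29, which held 99.54% of the identifiers. Offsets were splines of 5 degrees of freedom on GC content and deposited length in each library. On data simulated for the HCC-LM3 comparison (16291 genes), 94% of genes changed by 1 and 98% of those changed by 2 on the log2 scale were called, and 16 of 208 calls were false. The changed genes were drawn from those above 1 CPM in HCC-LM3 wild type, so these rates do not cover CFI or SERPING1. No shift with GC content or length was put in, and no change was simulated in Huh-7, so the rates do not extend to such shifts. Alternatives used DESeq2 1.42.0, limma 3.58.1 with voom or log2(TPM + 0.1), library totals, other filters, the offsets, a replicate block, fewer groups and each library left out. All 9 genes, METTL5, the lists of other complement, inducer and acute-phase genes (named where their mean was at least 1 CPM) and the 3 genes closest in pattern were reported. A gene of these lists is not reported here. The genes and lists were chosen with earlier results of these data known, and the within-library ratios and the motifs printed after seeing the data. Marker lists other than hepatocyte ones summed, over the groups, to 2684 to 8537 TPM (epithelial), 3.92 to 18.57 (macrophage and leukocyte), 0.55 to 20.45 (fibroblast and stellate) and 0.36 to 2.86 (endothelial).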

Additional observations from a re-analysis of the deposited data

Results flagged for a closer look

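The knockout effect differed between the lines, by the interaction test of the fit, for 7 of the 9 complement genes and for the C4 pair. With the effect in Huh-7 subtracted from that in HCC-LM3, the difference was 2.41 for C3, 2.89 for C4A, 1.81 for C4B, 2.37 for C4A and C4B together, 1.37 for C5, 1.63 for CFB, 2.30 for CFI and 2.40 for C1S, on the log2 scale. Over all genes tested 61.6% differed in this way. With offsets for GC content and length, C4B (1.03) and C5 (−0.38) no longer passed. Under these offsets 6 of the 9 genes were called higher, so C1R or SERPING1 passed there.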

How the results depend on the processing

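The main results here are the C4 pair, the counts of complement genes called and the counts of ranks kept. Of their alternative values 135 were kept, 5 moved, 3 lost the call and 7 changed sign. For the C4 pair, kept means the same direction and side of the threshold. For a count it means only that the count stayed near the main one, and moved means that it did not. For single genes, 592 kept direction and side of the threshold, 31 lost the call, 15 gained it and 18 changed sign. The count of complement genes called in HCC-LM3 fell from 7 to 4 with the replicate block and offsets together and to 1 with limma on log2(TPM + 0.1), where the C4 pair was at 0.81 and not called. In Huh-7, C1R reversed with library totals (−0.99) and TPM (−1.37), and SERPING1 with library totals (−0.89), TPM (−1.33) and the offsets (−0.35, also with the block). The C4 pair in Huh-7 was −0.46 and not called with the offsets, with or without the block. The offsets also reversed the C5 difference between the effects (−0.38, also with the block) and the C4 pair between the wild-type lines (0.39, or 0.38 with the block). Values past the test under neither setting also changed sign. The C4 pair between the wild-type lines was 0.40 with library totals, 0.05 without a filter, 0.32 with TPM and −0.13 to 0.17 with each library left out, and C4A was 0.07 with library totals, 0.08 with the offsets (0.09 with the block) and 0.40 with TPM. C1R in Huh-7 was −0.00 without a filter and −0.28 with the offsets (also with the block), and its difference between the effects was −0.21 with DESeq2 size factors and −0.20 with the DESeq2 Wald test. CFI in HCC-LM3 was −0.19 with TPM. With TMM-scaled counts per kilobase, the TPM rank was kept by 5 of 8 entries in HCC-LM3 knockout, by 1 in wild-type Huh-7 cells and by 4 in their knockout. The cause was not tested. Over all genes the HCC-LM3 count of 4440 was 6136 without wild-type replicate 1, 2832 without replicate 2 and 2743 without replicate 3 of that group. It was 2850 with the block and offsets and 2000 with TPM. Wild-type replicate 1 stood apart in HCC-LM3, with a mean gene length of 3033 bases against 3260 and 3256 in replicates 2 and 3. Its mean GC content was 52.72% against 52.1% and 52.08%.

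Leaving out each library in turn gave 5 to 7 complement genes called in HCC-LM3, 6 to 7 in Huh-7, 7 to 8 for the difference between the effects and 7 to 8 between the wild-type lines. The replicate numbers do not pair the samples: same-numbered libraries had correlations of deviations of −0.04, 0.08 and −0.11 in HCC-LM3. For Huh-7 they were −0.01, −0.04 and 0.01. With the replicate block alone, 7 complement genes were called in HCC-LM3, 6 in Huh-7 (SERPING1 no longer), 7 for the difference and 7 between the lines, and the C4 pair was 1.39, −0.99, 2.38 and −0.05. Depth limits SERPING1 and CFI in HCC-LM3 and C1S, CFI and the C4 pair in Huh-7 knockout, which rest on few counts.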
